A study of Mus musculus with 6 samples.

Results

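Arg1-high macrophages were examined in tumors of mice given PBS or an IL-10-based cytokine. They were taken as barcodes with at least 5 UMIs of Arg1, the gene for arginase 1, among macrophages, and 9491 of 24742 macrophages met the rule, among 130444 barcodes in all. A macrophage had at least 1000 detected genes, at most 10% mitochondrial UMIs, 1 hashtag antibody with at least 2/3 of the antibody UMIs, and at least 1 UMI of 2 or more of Csf1r, C1qa, C1qb and Adgre1. It carried at most 3 UMIs of the tumor keratins Krt8 and Krt18 together, no UMI of the lymphocyte genes Cd3e, Ncr1 and Klrb1c, and was not among the T and NK cells annotated by the authors. An Arg1-high cell also had at most 1 UMI of Cx3cr1 and none of Cd163, which set it apart from Cx3cr1+ macrophages (3863 cells) and from Cd163+ Folr2+ macrophages (1451 cells). Its closest neighbours were the 9241 macrophages that passed the same Cx3cr1 and Cd163 limits with fewer than 5 Arg1 UMIs. The Arg1, Cx3cr1 and Cd163 counts of a cell, with the macrophage, keratin and lymphocyte genes, are therefore what the members were chosen by. Their levels in members against other cells are given as description only, whereas the number of members and the level of Arg1 over all macrophages were compared between treatments.

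C57BL/6 mice carried subcutaneous 6694c2vTRP1 tumors, a transplanted pancreatic ductal adenocarcinoma line, and were injected intraperitoneally with 2 doses from day 8 before tumors were taken on day 14. The PBS group had received buffer, the mono-IL10 group 26 µg per mouse of a monomeric form of human IL-10, and the IL10/2-Trikine group 30.6 µg per mouse of that same cytokine joined to a partner that binds the IL-2 receptor beta chain. CD45+ cells were isolated with beads, and the 5 mice of a group were told apart by hashtag antibodies and pooled into 1 library of 10x Genomics 5' single-cell RNA sequencing. Each treatment was thus 1 library, and the effect of a treatment and that of its library cannot be told apart. The labels call the source tumor-infiltrating lymphocytes, and the members were chosen to hold macrophage and to lack lymphocyte transcripts, so the marker sums below follow in part from the rule. In all, 8 macrophage markers, 4 of them used in the rule and led by C1qb, which is one of these, summed to between 5924 and 9997 CPM in the 15 mice, against 34.4 to 194 CPM for 5 T cell markers and 7.06 to 37.2 CPM for 4 B cell markers. CPM, a level, means UMIs of a gene per 1000000 UMIs summed over the members of 1 mouse.

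Arginase 1 splits arginine into ornithine and urea, and macrophages with much arginase can deprive nearby T cells of arginine while feeding ornithine into polyamine and proline synthesis. Arg1 is induced in mouse macrophages by IL-4 and IL-13, by hypoxia and lactate, and by cytokines that act through STAT3, among them IL-10. In tumors such cells are found with genes of matrix remodeling, angiogenesis and glycolysis. The IL-10 receptor signals mainly through STAT3 in macrophages, where it raises Socs3, Il4ra and Il1rn and restrains inflammatory cytokines.

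Within the macrophages of the same mouse, the members had higher levels of the 4 other marker genes. Ccl24, a chemokine for eosinophils, averaged 322 CPM in members and 123 CPM in all other macrophages. Mmp19, a metalloproteinase, averaged 363 CPM against 186 CPM, and the matrix protein gene Thbs1 averaged 6519 CPM against 4834 CPM. Tgfbi, a matrix protein induced by TGF-beta, differed less, with 1516 CPM against 1309 CPM. All 4 were higher in members than in other macrophages in 15 of 15 mice. These markers were given with the label, so the values describe the class and are no separate support for it. Of 3475 genes with at least 50 CPM in either class, 272 were higher and 446 lower in members in every mouse. The highest ratios besides Arg1 were those of Inhba (activin A subunit, 371 against 123 CPM), Cxcl3 (a neutrophil chemokine, 745 against 263 CPM), Sdc1 (syndecan 1), Mmp12 (macrophage elastase, 879 against 317 CPM) and the fatty acid receptor Cd36. The coagulation factor genes F7 and F10 and the arginine transporter Slc7a2 (175 against 82.1 CPM) followed. The lowest ratios were those of Cbr2, Ccl8 (1173 against 2963 CPM), Hpgds, Npl and Ccl7. These values describe how the classes differ and were not tested, because the cells were sorted by counts of the same libraries.

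**Figure D1:**
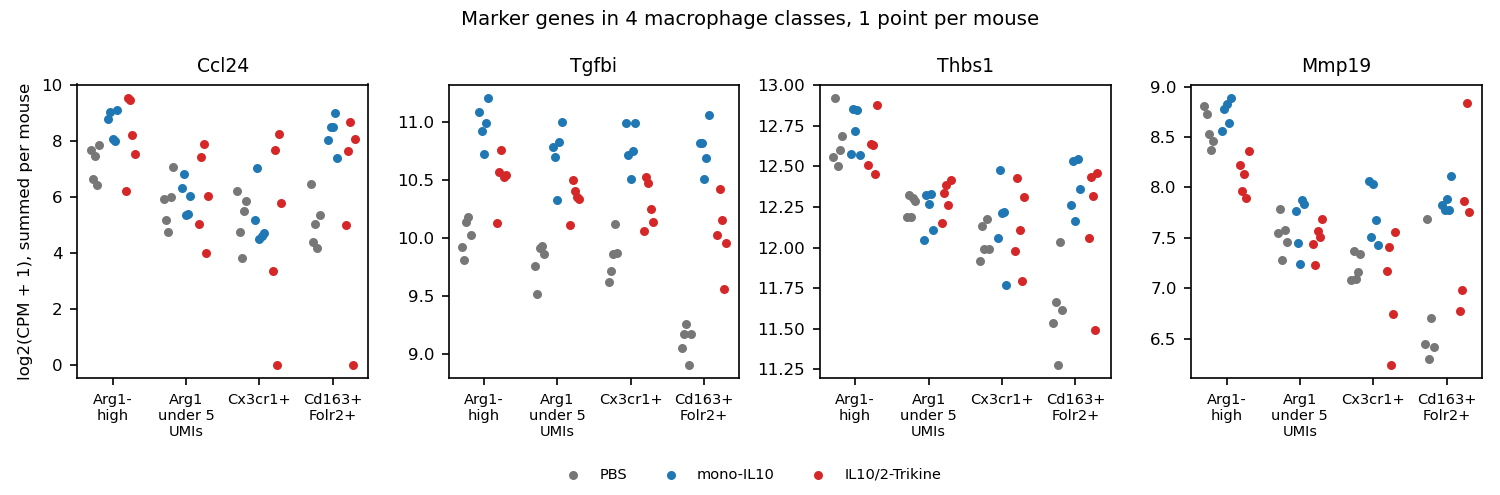
Level of Ccl24, Tgfbi, Thbs1 and Mmp19 (y axis, log2 of CPM + 1; each axis starts near its lowest value) in 4 macrophage classes (x axis), with 1 point per mouse and 5 mice per treatment in grey (PBS), blue (mono-IL10) and red (IL10/2-Trikine). All 4 genes were higher in members than in other macrophages of the same mouse in 15 of 15 mice.

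The cells of a mouse that met the rule ranged widely in Arg1. When they were split into 3 equal parts by the share of Arg1 among their UMIs, which is the value the rule used, the lowest part was also the deeper one in 15 of 15 mice, with a median of 6676 UMIs per cell on average over mice against 4999 in the highest part. The values here are a description with no test. Ccl24 averaged 139 CPM in the lowest part and 606 CPM in the highest, and was higher there in 15 of 15 mice. Cxcl3 moved from 403 to 1265 CPM, Slc7a2 from 122 to 262 CPM and Nos2, which competes with arginase for arginine, from 10.5 to 32.8 CPM, each in 15 of 15 mice. The hypoxia gene Bnip3 (103 to 223 CPM) and the glucose transporter gene Slc2a1 (92.1 to 159 CPM) rose in the same order. Ccl8 fell from 1542 to 681 CPM and Mki67, a proliferation marker, from 40.1 to 19.4 CPM in 15 of 15 mice, and H2-Ab1, an MHC class II gene, from 1829.6 to 1122 CPM in 14 of 15. When the cells of each mouse were first sorted into 10 groups of like depth and split within each, a choice made after seeing the data, the parts had medians of 5598 and 5612 UMIs. The lowest and highest parts then stood at 131 and 581 CPM for Ccl24, 379 and 1159 CPM for Cxcl3, 1616 and 798 CPM for Ccl8 and 1785 and 1226 CPM for H2-Ab1, with 1 direction in 15 of 15 mice for each, while Mki67 was higher in the highest part in 2 of 15 mice. Next to the threshold, with exactly 5 and exactly 4 Arg1 UMIs, Ccl24 averaged 142 and 164 CPM, Tgfbi 1414 and 1406 CPM, Thbs1 6082 and 5776 CPM, and Mmp19 275 and 231 CPM.

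The members made up a larger part of the macrophages after mono-IL10. They were 22.9, 25.3, 39.9, 30.1 and 33.4% of macrophages in the PBS mice, 54.1, 48.5, 55.8, 52.96 and 53.2% in the mono-IL10 mice and 28.9, 44.5, 46.5, 28.1 and 43.7% in the IL10/2-Trikine mice, with between 411 and 3565 macrophages per mouse. Every mono-IL10 mouse lay above every PBS mouse and every IL10/2-Trikine mouse, while only 3 mice given IL10/2-Trikine exceeded the highest PBS mouse. The mean was 52.9% ± 2.70 (SD, n = 5) with mono-IL10, 30.3% ± 6.73 with PBS and 38.3% ± 9.05 with IL10/2-Trikine. By exact two-sided permutation tests over mice, adjusted over 6 comparisons, mono-IL10 exceeded PBS by 22.6 percentage points (p = 0.00794, adjusted p = 0.0159) and IL10/2-Trikine by 14.6 points (IL10/2-Trikine - mono-IL10 of -14.6, p = 0.00794, adjusted p = 0.0159). The difference of 8.00 points between IL10/2-Trikine and PBS did not pass (exact permutation p = 0.143, adjusted p = 0.143). With 5 mice against 5, 0.00794 is the smallest p the test can give. Of all hashtag-assigned cells, members were 15.6%, 24.6% and 12.2% on average in the PBS, mono-IL10 and IL10/2-Trikine groups. With that denominator mono-IL10 exceeded PBS by 8.99 points (exact permutation p = 0.0317, adjusted p = 0.0476).

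The count of 5 Arg1 UMIs is easier to reach in a deeper cell, and depth differed between the libraries. Members had a median of 5629 to 6926 UMIs in the PBS mice, 5256 to 8049 in the mono-IL10 mice and 2933 to 4006 in the IL10/2-Trikine mice. When every macrophage was thinned to 3000 UMIs and at least 2 Arg1 UMIs were asked for, the share was 45.1%, 65.5% and 61.8% on average in PBS, mono-IL10 and IL10/2-Trikine mice. The IL10/2-Trikine group then exceeded PBS by 16.7 points (exact permutation p = 0.0238, adjusted p = 0.0357) and lay 3.76 points below mono-IL10 (p = 0.421 by the same exact test, adjusted p = 0.421). Thinning left out the shallower macrophages. These were 1370 of 9635 in the PBS library, 793 of 7356 in the mono-IL10 library and 3686 of 7751 in the IL10/2-Trikine library. With the same limit of 2 UMIs and no thinning, IL10/2-Trikine exceeded PBS by 14.7 points (exact permutation p = 0.0397, adjusted p = 0.0595). The standing of IL10/2-Trikine also moved with the Arg1 threshold. Thinning was run at the limit of 2 UMIs only, and a higher limit is itself harder to reach in shallower cells, so threshold and depth were not told apart. At 10 or more Arg1 UMIs it lay 0.159 points above PBS (exact permutation p = 0.968, adjusted p = 0.968) and differed from mono-IL10 by -19.5 points (exact permutation p = 0.00794, adjusted p = 0.0119). With 5 or more Arg1 UMIs and any Cx3cr1 and Cd163 it lay 3.39 points above PBS (exact permutation p = 0.548, adjusted p = 0.548). The excess with mono-IL10 over PBS was 20.4 points after thinning to 3000 UMIs and passed (exact permutation p = 0.00794, adjusted p = 0.0238). Shares by the other genes of the rule also differed from PBS: cells with at least 2 Cx3cr1 UMIs were 28.2% of macrophages in PBS mice, 10.5% with mono-IL10 and 7.08% with IL10/2-Trikine, and cells with Cd163 were 3.80%, 13.1% and 10.4%. Both passed against PBS with either cytokine, and neither passed between the cytokines (exact permutation test, adjusted p = 0.246 for Cx3cr1 and 0.31 for Cd163). These counts were not thinned, and a shallower cell also meets the limits on Cx3cr1 and Cd163 more easily. With UMIs summed over all macrophages, Cx3cr1 averaged 184 CPM in PBS, 61.1 CPM in mono-IL10 and 85.8 CPM in IL10/2-Trikine mice. Cd163 averaged 15.6, 100.4 and 107.1 CPM. For both genes the order of the cytokines was thus the reverse of that of the shares.

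**Figure D2:**
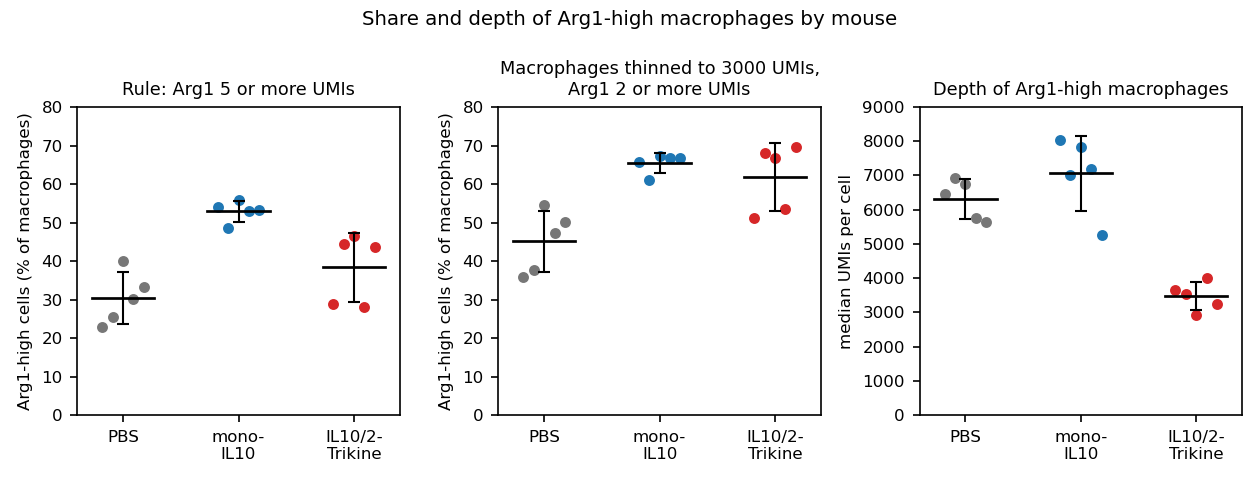
Arg1-high cells as a percentage of macrophages by the rule (left), the same after thinning to 3000 UMIs with at least 2 Arg1 UMIs (middle), and the median UMIs per Arg1-high cell (right) in each treatment group (x axis). Points are mice (n = 5 per group), lines are means and bars SD, and the mean of the IL10/2-Trikine group is 38.3% on the left, nearer to PBS, and 61.8% in the middle, nearer to mono-IL10. The middle panel changes both depth and threshold. The limit of 2 UMIs without thinning gave 59.3% with IL10/2-Trikine, 44.6% with PBS and 65.4% with mono-IL10.

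The libraries also differed in transcripts of other cells within the members. Over 4 NK cell markers, led by Nkg7, the sum was 41.6 to 98.4 CPM in PBS, 20.4 to 82.9 CPM in mono-IL10 and 146 to 249 CPM in IL10/2-Trikine mice. The 5 T cell markers summed to 50.1 to 138, 34.4 to 101 and 127 to 194 CPM. The 5 neutrophil markers, led by S100a8 and S100a9, summed to 1059 to 1492 CPM in PBS, 536 to 768 CPM in mono-IL10 and 644 to 1010 CPM in IL10/2-Trikine mice. The 8 tumor epithelial markers were low, at 29.2 to 46.9, 31.1 to 54.0 and 48.5 to 85.9 CPM, and the 5 fibroblast markers varied widely, at 118 to 1312, 9.12 to 545 and 673 to 1031 CPM. The comparisons were therefore repeated in the 1190, 2012 and 1155 members of the 3 groups that held no UMI of 24 such genes, an alternative chosen after the data were seen. The 24 held no dendritic cell or endothelial gene, and S100a8 and S100a9 were their only neutrophil genes. Profiles of mice of 1 group correlated at 0.906 to 0.987 across genes, which are not independent replicates. Cell barcodes shared by 2 libraries numbered 408 to 700 per pair, of which 0 to 3 were members in both.

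To see how the cytokines altered the state of these cells, UMIs were summed over the members of each mouse and 11525 genes were compared by edgeR's quasi-likelihood test with Benjamini-Hochberg adjustment. A gene was called at an adjusted p under 0.05, and fold changes are given on the log2 scale ± SE. Against PBS, 990 genes were higher (8.59% of genes tested) and 1111 lower (9.64%) with mono-IL10, 18.2% in all. With IL10/2-Trikine 688 were higher (5.97%) and 904 lower (7.84%), 13.8% in all. Between the cytokines, 887 genes were higher (7.7%) and 1047 lower (9.08%) with IL10/2-Trikine than with mono-IL10, 16.8% in all. The median log2 difference over all genes tested was -0.01 for mono-IL10 and 0.01 for IL10/2-Trikine against PBS, and 0.01 between the cytokines. Both comparisons with PBS share the PBS mice. The summed UMIs per mouse ran from 4826070 to 10270400 with mono-IL10 and from 663335 to 4350330 with IL10/2-Trikine. With sums thinned to the lowest mouse, fewer genes were called for mono-IL10 than for IL10/2-Trikine against PBS, as given in the last section. The counts of called genes therefore do not rank the cytokines. Counts of listed genes called below stand beside the shares of all genes given here.

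Of the marker genes, Tgfbi and Ccl24 were called between mono-IL10 and PBS and Thbs1 was not. Tgfbi stood at 968, 896, 1129, 1159 and 1045 CPM in the PBS mice, 2176, 1935, 1688, 2040.2 and 2365 CPM in the mono-IL10 mice and 1121, 1522, 1735, 1478 and 1490.3 CPM in the IL10/2-Trikine mice. The groups did not overlap between mono-IL10 and PBS (1.03 ± 0.09, edgeR adjusted p = 4.71e-07), and the rise with IL10/2-Trikine was smaller (0.45 ± 0.09, edgeR adjusted p = 0.00287). Ccl24 was the most variable marker, at 205, 99.6, 177, 85.5 and 228 CPM in the PBS mice, 444, 520.1, 267, 252 and 543 CPM in the mono-IL10 mice and 72.6, 743, 710.0, 292 and 186 CPM in the IL10/2-Trikine mice. It was higher with mono-IL10 in every mouse (1.41 ± 0.44, edgeR adjusted p = 0.0328), whereas IL10/2-Trikine mice spread over both sides of the PBS range (1.25 ± 0.46, edgeR adjusted p = 0.0773). For the mono-IL10 value DESeq2 gave 1.40 and members free of other cells' genes 1.12, both without a call. The call was lost when 1 mouse was left out, for each of PBS mouse 2, PBS mouse 3, PBS mouse 4, mono-IL10 mouse 1, mono-IL10 mouse 2 and mono-IL10 mouse 5, with values of 1.25 to 1.46. Mmp19 was lower with IL10/2-Trikine, at 297, 248, 280.4, 237 and 329 CPM against 447, 422, 369.6, 329.9 and 353 CPM in PBS mice (-0.50 ± 0.11, edgeR adjusted p = 0.00376). Thbs1 ranged from 5599 to 7766 CPM over the 15 mice, and the log2 difference from PBS was 0.11 with mono-IL10 and -0.08 with IL10/2-Trikine, neither of them called. In a fit over all macrophages, in which Arg1 was not used to choose cells, Arg1 itself was 0.98 ± 0.18 higher on the log2 scale with mono-IL10 than with PBS (edgeR adjusted p = 0.000721) and 0.59 ± 0.18 higher with IL10/2-Trikine (edgeR adjusted p = 0.0234), in comparisons that called 23.4% and 21.9% of genes. Between the cytokines, where 22.2% were called, the difference of Arg1 was -0.39 ± 0.18 (edgeR adjusted p = 0.13).

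Among genes called at a change of at least 1 on the log2 scale, with at least 20 CPM and no overlap between the mice of the 2 groups, 50 were higher and 51 lower with mono-IL10. The 5 with the largest rise were Gja1, Ifitm1, Pgap6, Saa3 and Pgf. Of all 11525 genes tested, 12.3% showed no overlap between mono-IL10 and PBS mice. That share was 9.65% between IL10/2-Trikine and PBS and 12.3% between the cytokines. Gja1, which encodes the gap junction protein connexin 43, stood at 10.6, 12.4, 20.6, 15.3 and 16.2 CPM in the PBS mice, 99.9, 121, 93.3, 120.0 and 116 CPM in the mono-IL10 mice and 43.7, 109.9, 67.8, 66.2 and 71.4 CPM in the IL10/2-Trikine mice. The PBS values lay below all others, and the change was 2.94 with mono-IL10 and 2.24 with IL10/2-Trikine (edgeR adjusted p = 1.26e-08 and 1.94e-06). Ecm1, the extracellular matrix protein 1 gene, stood at 127, 133, 131, 124 and 139 CPM in the PBS mice, 399, 386, 412, 397 and 424 CPM in the mono-IL10 mice and 302, 355, 335, 331 and 382 CPM in the IL10/2-Trikine mice. Its change was 1.68 ± 0.06, edgeR adjusted p = 6.55e-12 with mono-IL10 and 1.34 ± 0.07, edgeR adjusted p = 6.08e-10 with IL10/2-Trikine. Ifitm1, an interferon-inducible membrane protein gene, stood at 136, 340.0, 98.1, 158 and 166 CPM in the PBS mice, 1099, 1114, 1155, 1257 and 816 CPM in the mono-IL10 mice and 417, 611, 418, 822 and 701 CPM in the IL10/2-Trikine mice. The mono-IL10 mice were all higher than the PBS mice by a wide margin (2.63 ± 0.27, edgeR adjusted p = 3.03e-06), and the IL10/2-Trikine mice lay above all PBS mice and reached into the mono-IL10 range (1.64 ± 0.27, edgeR adjusted p = 4.70e-04). Pgf, the placental growth factor gene, reached 236 to 347 CPM with mono-IL10, from 43.9 to 98.9 CPM in PBS mice, and 85.9 to 145 CPM with IL10/2-Trikine. Its change was 2.21 ± 0.20, edgeR adjusted p = 4.48e-07 with mono-IL10, and it was the first of 8 genes that passed the same criteria as lower with IL10/2-Trikine than with mono-IL10 (-1.48 ± 0.20, edgeR adjusted p = 9.10e-05).

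Of the chemokine genes, Ccl8, a chemokine for monocytes and eosinophils, stood at 389, 368, 369.9, 565 and 646 CPM in the PBS mice, 2255, 1771, 1035, 1673 and 1246 CPM in the mono-IL10 mice and 838, 2017, 1747, 997 and 1679 CPM in the IL10/2-Trikine mice. The mice of both treated groups lay above every PBS mouse (1.84 ± 0.24, edgeR adjusted p = 3.00e-05 with mono-IL10 and 1.59 ± 0.24, edgeR adjusted p = 1.80e-04 with IL10/2-Trikine). Ccl12, a monocyte chemokine, rose with them (1.17 and 1.58). Ccl17, a ligand of CCR4 on T cells, fell in both groups, from 133, 96.1, 135, 102 and 85.2 CPM in PBS mice to 39.2, 23.3, 21.9, 8.91 and 19.2 CPM with mono-IL10 and 15.6, 28.6, 15.1, 2.76 and 5.45 CPM with IL10/2-Trikine. The fall was -2.16 ± 0.28, edgeR adjusted p = 3.38e-05 and -2.80 ± 0.35, edgeR adjusted p = 3.39e-05, and stood at -3.91 and -3.17 in members free of other cells' genes. The 6 dendritic cell markers in the members summed to 40.3 to 115 CPM in PBS, 37.5 to 83.4 CPM in mono-IL10 and 34.2 to 48.96 CPM in IL10/2-Trikine mice. They were not among the removed genes, and the part of dendritic cell transcripts in the fall of Ccl17 was not tested. Cxcl3, a ligand of CXCR2 on neutrophils, stood at 1229, 828, 1850.0, 854 and 1236 CPM in the PBS mice, 522, 419, 669, 426 and 701 CPM in the mono-IL10 mice and 753, 323, 504, 484 and 374 CPM in the IL10/2-Trikine mice. It fell with both cytokines (-1.07 ± 0.23, edgeR adjusted p = 0.00319 and -1.33 ± 0.24, edgeR adjusted p = 9.05e-04) and in members free of other cells' genes too (-1.24 and -1.15). Of the neutrophil markers only S100a8 and S100a9 were removed there. Of 19 listed chemokines, 4 rose and 2 fell with mono-IL10, and 3 rose and 3 fell with IL10/2-Trikine, with medians of 0.04 and 0.02. The shares that fell, 2 and 3 of 19, stand beside 9.64% and 7.84% of all genes, and those that rose, 4 and 3 of 19, beside 8.59% and 5.97%. The 3 that fell were 1 without PBS mouse 2, IL10/2-Trikine mouse 2 or mouse 3, and the 2 that fell with mono-IL10 were 1 without any 1 of 8 mice (PBS mice 1, 3 and 5, mono-IL10 mice 1, 2, 4 and 5 and IL10/2-Trikine mouse 5).

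Among 17 genes of alternative activation, 6 rose and 6 fell with mono-IL10, and 3 rose and 3 fell with IL10/2-Trikine (5 fell without mono-IL10 mouse 4). Over all genes 8.59% rose and 9.64% fell with mono-IL10, and 5.97% rose and 7.84% fell with IL10/2-Trikine. Mrc1, the mannose receptor gene, stood at 966, 868, 827, 896 and 987 CPM in the PBS mice, 2148, 1965, 1734, 1875 and 1952 CPM in the mono-IL10 mice and 1619.9, 2333, 2599, 1644 and 2168 CPM in the IL10/2-Trikine mice. It rose with both (1.15 ± 0.10, edgeR adjusted p = 4.63e-07 and 1.14 ± 0.10, edgeR adjusted p = 1.40e-06) and did not pass between them (-0.01 ± 0.10, edgeR adjusted p = 0.978). The IL-4 receptor gene Il4ra rose by 1.08 ± 0.08, edgeR adjusted p = 3.56e-08 with mono-IL10 and by 0.70 ± 0.08, edgeR adjusted p = 1.56e-05 with IL10/2-Trikine. F13a1, coagulation factor XIII, rose as well (0.66 and 0.93). Mgl2, a lectin gene, fell beside Ccl17 with mono-IL10 (-1.07 ± 0.23, edgeR adjusted p = 0.00344), so genes that IL-4 is known to induce moved in both directions.

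Of 20 matrix and protease genes, 6 rose and 3 fell with mono-IL10, and 6 rose and 5 fell with IL10/2-Trikine, or 3 fell without IL10/2-Trikine mouse 2. The shares of all genes that rose and fell were 8.59% and 9.64% with mono-IL10 and 5.97% and 7.84% with IL10/2-Trikine. Fn1, fibronectin, rose from 1206 to 2008 CPM in PBS mice to 2496 to 2931 CPM with mono-IL10 (0.74 ± 0.13, edgeR adjusted p = 4.53e-04) and 2073 to 2925 CPM with IL10/2-Trikine (0.58 ± 0.13, edgeR adjusted p = 0.00444). Ctsl, the cathepsin L gene, rose by 1.18 ± 0.10, edgeR adjusted p = 2.42e-07 and 0.88 ± 0.10, edgeR adjusted p = 1.27e-05. The collagenase gene Mmp13 rose with mono-IL10 (0.94 ± 0.14, edgeR adjusted p = 1.39e-04). Spp1, osteopontin, passed only the IL10/2-Trikine test (0.98 ± 0.24, edgeR adjusted p = 0.00891), with 0.50 for mono-IL10 (edgeR adjusted p = 0.159) and 0.49 between the cytokines (edgeR adjusted p = 0.177). Plaur, the urokinase receptor gene, and Cd44, a hyaluronan receptor gene, fell with both.

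The genes of arginine use that were called beyond Arg1 were mostly lower. Ass1, argininosuccinate synthase, which rebuilds arginine from citrulline, stood at 104, 61.5, 127, 109 and 85.2 CPM in the PBS mice, 39.7, 44.4, 34.2, 32.7 and 34.01 CPM in the mono-IL10 mice and 51.3, 35.95, 39.2, 24.8 and 37.2 CPM in the IL10/2-Trikine mice. It fell to a similar level with both cytokines (-1.31 ± 0.16, edgeR adjusted p = 1.32e-05 and -1.30 ± 0.18, edgeR adjusted p = 7.58e-05), with no overlap with PBS mice. Odc1, ornithine decarboxylase, which draws ornithine into polyamines, was lower with IL10/2-Trikine than with PBS (-0.50 ± 0.11, edgeR adjusted p = 0.00415) and mono-IL10 (-0.75 ± 0.11, edgeR adjusted p = 1.73e-04). Arg2, the mitochondrial arginase gene, followed the same pattern (-0.83 and -0.89, or -0.50 with edgeR adjusted p = 0.047 and -0.77 in members free of other cells' genes), and Srm, spermidine synthase, rose with IL10/2-Trikine (0.63 ± 0.15, edgeR adjusted p = 0.00725). Of the 12 listed genes other than Arg1, 2 fell with mono-IL10, and 1 rose and 4 fell with IL10/2-Trikine, with medians of -0.02 and -0.22. Over all genes 9.64% fell with mono-IL10, and 5.97% rose and 7.84% fell with IL10/2-Trikine.

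The IL-10 response genes separated the cytokines. Of 16, 9 rose and 1 fell with mono-IL10 (median 0.33; 2 fell without PBS mouse 3 or 5), 2 rose (1 without any 1 of PBS mice 1, 3, 4 and 5 and IL10/2-Trikine mice 2, 4 and 5) and 4 fell with IL10/2-Trikine (median -0.07), and 7 were lower and none higher with IL10/2-Trikine than with mono-IL10 (median -0.32). Over all genes 8.59% rose and 9.64% fell with mono-IL10, and 5.97% rose and 7.84% fell with IL10/2-Trikine. Between the cytokines 9.08% of all genes were lower with IL10/2-Trikine. Socs3, the feedback inhibitor of STAT3 signaling, stood at 289.7, 377, 314, 304 and 313 CPM in the PBS mice, 424, 471, 447, 498 and 410.3 CPM in the mono-IL10 mice and 273, 290.3, 319.6, 291 and 306 CPM in the IL10/2-Trikine mice. All mono-IL10 mice lay above all others (0.55 ± 0.08, edgeR adjusted p = 1.74e-04; IL10/2-Trikine -0.17 ± 0.09, edgeR adjusted p = 0.237), and the cytokines differed (-0.71 ± 0.09, edgeR adjusted p = 3.87e-05). Il1rn, the IL-1 receptor antagonist gene, went the same way (0.47 ± 0.09, edgeR adjusted p = 8.53e-04 with mono-IL10, -0.19 with IL10/2-Trikine, edgeR adjusted p = 0.174). Fcgr1, the high-affinity Fc receptor gene, rose with mono-IL10 (0.68 ± 0.11, edgeR adjusted p = 2.61e-04) and Tnip3, an inhibitor of NF-kB signaling, fell with both (-0.92 and -0.71). Il10ra, the receptor's own chain, was higher with mono-IL10 (0.27 ± 0.06, edgeR adjusted p = 0.00471) and lower with IL10/2-Trikine (-0.30 ± 0.07, edgeR adjusted p = 0.00616), but in members free of other cells' genes the call against PBS was lost for IL10/2-Trikine (-0.21).

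The promoters of 3 of these genes are shown because they hold the letters that STAT proteins recognize, TTCNNNGAA, searched on both strands (the motif is its own reverse complement) from 250 bases before to 50 after the gene start. Of the 9 IL-10 response genes that rose with mono-IL10, 7 had an entry in the RefSeq promoter table (assembly GRCm38.p6, whereas the counts were made on GRCm39), and 3 of these 7 (42.9%) held the motif, against 8.3% of 32851 promoters. The list was made of genes known to respond to IL-10. Its genes that did not rise were not counted, and the shares were not compared by a test. Of 27 named or listed genes called higher in both treated groups, comparisons that share the PBS mice, 25 had an entry and 2 (8.0%) held it, so the motif was no more common there than in all promoters. Capitals mark the match. The Socs3 promoter lies at chr11:117969317-117969616 on the minus strand, that of Fcgr1 at chr3:96293920-96294219 (minus), and that of Sbno2, a corepressor gene induced by IL-10, at chr10:80102653-80102952 (minus). The promoter of the marker gene Tgfbi (chr13:56609336-56609635, plus strand) is given beside them and holds no match. Arg1, Ccl24, Thbs1 and Mmp19 had no entry. A match is a description of letters and not a site of binding.
Socs3: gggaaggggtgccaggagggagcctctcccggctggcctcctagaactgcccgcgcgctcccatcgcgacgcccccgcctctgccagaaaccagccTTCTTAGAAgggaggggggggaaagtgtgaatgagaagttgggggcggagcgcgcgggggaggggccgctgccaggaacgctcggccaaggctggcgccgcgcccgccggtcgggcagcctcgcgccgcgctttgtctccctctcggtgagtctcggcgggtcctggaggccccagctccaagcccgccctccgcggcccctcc
Fcgr1: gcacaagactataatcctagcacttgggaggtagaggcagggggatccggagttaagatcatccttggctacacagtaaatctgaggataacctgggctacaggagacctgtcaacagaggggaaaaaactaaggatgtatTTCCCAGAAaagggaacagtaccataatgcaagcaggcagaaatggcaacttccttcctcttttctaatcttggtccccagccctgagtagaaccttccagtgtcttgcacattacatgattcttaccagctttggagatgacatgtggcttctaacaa
Sbno2: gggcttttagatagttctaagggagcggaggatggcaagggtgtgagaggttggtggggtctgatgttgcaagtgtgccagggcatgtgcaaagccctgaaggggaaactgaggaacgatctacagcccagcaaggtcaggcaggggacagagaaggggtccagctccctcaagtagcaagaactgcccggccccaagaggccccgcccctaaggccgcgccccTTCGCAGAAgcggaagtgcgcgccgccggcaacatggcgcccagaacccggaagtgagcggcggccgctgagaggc
Tgfbi: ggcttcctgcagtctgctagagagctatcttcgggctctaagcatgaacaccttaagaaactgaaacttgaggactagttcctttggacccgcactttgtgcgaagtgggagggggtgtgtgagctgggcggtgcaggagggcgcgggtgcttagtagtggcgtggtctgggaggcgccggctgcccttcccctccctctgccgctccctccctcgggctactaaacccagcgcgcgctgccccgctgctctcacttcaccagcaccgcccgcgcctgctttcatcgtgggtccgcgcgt

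Cytokines that IL-10 restrains fell mainly with IL10/2-Trikine. Of 16 listed genes, 9 fell and none rose (median -0.50), beside 7.84% of all genes that fell. With mono-IL10 3 fell (median -0.06), beside 9.64% of all genes. Between the cytokines 8 were lower with IL10/2-Trikine than with mono-IL10 (median -0.45), beside 9.08% of all genes. Without PBS mouse 2, 5 fell with IL10/2-Trikine and 3 rose with mono-IL10, where 1 rose without PBS mouse 4 and 2 without mono-IL10 mouse 5. In members free of other cells' genes 5 of 14 fell with IL10/2-Trikine against PBS (median -0.43) and 2 of 14 were lower than with mono-IL10 (median -0.18), in a fit that called 398 genes rather than 1934 between the cytokines. These 2 were Il1b at -0.65 (from -0.74) and Ptgs2 at -0.71 (from -0.92). Il1b stood at 5349, 7692, 5772, 5076 and 6112 CPM in the PBS mice, 6933, 7637, 7013, 6976 and 5866 CPM in the mono-IL10 mice and 4287, 4635, 3865, 5143 and 4297 CPM in the IL10/2-Trikine mice. All IL10/2-Trikine mice lay below all mono-IL10 mice, and 4 of 5 below all PBS mice (-0.48 ± 0.12, edgeR adjusted p = 0.00991), while mono-IL10 did not differ by the test from PBS (0.25 ± 0.12, edgeR adjusted p = 0.156). Ptgs2, cyclooxygenase 2, fell with IL10/2-Trikine (-0.71 ± 0.11, edgeR adjusted p = 3.72e-04), as did Cd80, a costimulatory ligand (-0.75 ± 0.10, edgeR adjusted p = 4.00e-05). Cd80 was called lower with mono-IL10 as well, at -0.34 to -0.22 with 1 mouse left out, and that call was lost for 4 of the mice. The neutrophil marker sums were lower in both treated groups. In members free of other cells' genes the fall of Il1b was -0.45 and that of Ptgs2 -0.60. Of the neutrophil markers only S100a8 and S100a9 were removed there, and the part of neutrophil transcripts in these falls was not tested. Acod1, which makes itaconate, fell as well (-1.41 ± 0.10, edgeR adjusted p = 9.90e-08), and in members free of other cells' genes it lost the call (-0.67). It fell less with mono-IL10, at -0.93 to -0.82 with 1 mouse left out (edgeR adjusted p of at most 2.20e-05). That call too was lost in members free of other cells' genes (-0.44).

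MHC class II genes were lower with IL10/2-Trikine. Of 8 genes, 6 fell against PBS (median -0.71) and 6 against mono-IL10 (median -0.59), while 0 of 8 were called between mono-IL10 and PBS by edgeR (median -0.12). Over all genes 7.84% were lower with IL10/2-Trikine than with PBS and 9.08% lower than with mono-IL10. H2-Ab1 stood at 1707, 2404, 1319.7, 2302 and 1669 CPM in the PBS mice, 1862, 1792, 1298, 1905 and 1293 CPM in the mono-IL10 mice and 1117, 1153, 987, 1192 and 1076 CPM in the IL10/2-Trikine mice. All IL10/2-Trikine mice were below all PBS and mono-IL10 mice (-0.81 ± 0.15, edgeR adjusted p = 0.00136 and -0.66 ± 0.15, edgeR adjusted p = 0.00577). Cd74, the invariant chain, followed (-0.71 ± 0.15, edgeR adjusted p = 0.00382). In members free of other cells' genes 5 of 8 still fell against PBS and 0 of 8 against mono-IL10, with H2-Ab1 at -0.32. The removed genes held none of dendritic cells, and the part of dendritic cell transcripts in these falls was not tested. None of 12 MHC class I genes was called in any comparison. Of 18 interferon-gamma response genes 1 rose with mono-IL10 and 1 fell with IL10/2-Trikine, beside 8.59% and 7.84% of all genes. Without 1 mouse, 1 MHC class I gene rose with mono-IL10 (without PBS mouse 4 or mono-IL10 mouse 3). The interferon-gamma counts became 3 risen with mono-IL10 without its mouse 3, 2 without its mouse 5, and 2 fallen with IL10/2-Trikine without mono-IL10 mouse 1, 3 or 5. With IL10/2-Trikine, 1 interferon-gamma gene rose without PBS mouse 4, mono-IL10 mouse 1 or 3, or IL10/2-Trikine mouse 3. Of 19 type I interferon response genes, 4 fell with IL10/2-Trikine, but 2 without PBS mouse 1, IL10/2-Trikine mouse 1 or mouse 5 and 0 without IL10/2-Trikine mouse 2, and 2 fell with mono-IL10, beside 9.64% of all genes.

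Some glycolysis and hypoxia genes were also lower with IL10/2-Trikine. Of 16 glycolysis genes 5 fell against PBS (median -0.12) and 4 against mono-IL10, and of 15 hypoxia genes 6 fell and 1 rose against PBS (median -0.22) and 7 fell against mono-IL10. The 1 that rose was lost without any 1 of 10 mice (PBS mice 1 to 4, mono-IL10 mice 1 and 3 and IL10/2-Trikine mice 1, 2, 3 and 5). With mono-IL10, 4 hypoxia genes rose and 0 fell against PBS by edgeR (median 0.09), and 2 glycolysis genes rose and 1 fell (median 0.02), counts of 0 to 3 and 0 to 1 with 1 mouse left out. Over all genes 8.59% rose and 9.64% fell with mono-IL10, and 5.97% rose and 7.84% fell with IL10/2-Trikine. The lactate exporter gene Slc16a3 fell (-0.71 ± 0.10, edgeR adjusted p = 1.03e-04), and so did the glucose transporter gene Slc2a1 (-0.62 ± 0.12, edgeR adjusted p = 0.00131). Vegfa, which drives vessel growth, changed by -0.28 ± 0.07, edgeR adjusted p = 0.0131. In members free of other cells' genes 2 of 15 glycolysis genes and 0 of 15 hypoxia genes were called lower against PBS, in a fit that called 690 genes rather than 1592. The values there were -0.54 for Slc16a3 and -0.52 for Slc2a1, both still called, and -0.22 for Vegfa, not called, so the smaller counts do not show that these differences were absent. Ddit4, a hypoxia gene that restrains mTOR, rose with mono-IL10 to 110 to 178 CPM from 36.0 to 70.2 CPM in PBS mice (1.64 ± 0.15, edgeR adjusted p = 6.89e-07) and was lower with IL10/2-Trikine than with mono-IL10 (-1.10 ± 0.16, edgeR adjusted p = 1.73e-04).

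Cell cycle genes fell with mono-IL10. Of 18, 13 fell with mono-IL10 (median -0.74), none was called with IL10/2-Trikine (median -0.11; 1 fell without PBS mouse 2), and 11 were higher with IL10/2-Trikine than with mono-IL10 (median 0.72). The last count was 3 without IL10/2-Trikine mouse 1 or mouse 2, 6 without mono-IL10 mouse 2 or mouse 4, and 7 without mono-IL10 mouse 3. Over all genes 9.64% fell with mono-IL10, and 7.7% were higher with IL10/2-Trikine than with mono-IL10. Top2a, topoisomerase II alpha, stood at 66.3, 43.5, 72.7, 57.2 and 52.1 CPM in the PBS mice, 40.7, 21.5, 18.8, 24.2 and 25.4 CPM in the mono-IL10 mice and 62.98, 63.7, 34.7, 41.4 and 32.7 CPM in the IL10/2-Trikine mice. All mono-IL10 mice were below all PBS mice (-1.05 ± 0.20, edgeR adjusted p = 0.00128), and IL10/2-Trikine mice overlapped both groups. Mcm5, a subunit of the replicative helicase, changed by -1.16 ± 0.20, edgeR adjusted p = 5.13e-04 with mono-IL10. In members free of other cells' genes Top2a (-1.44) and Mcm5 (-1.40) kept these calls. Fibroblast markers had a median of -1.39 with mono-IL10 (0 of 4 called) and 1.57 between the cytokines (2 of 4 higher). Of T and NK cell markers, 3 of 5 and 3 of 4 were higher with IL10/2-Trikine than with mono-IL10. The part of other cells' transcripts in the cell cycle counts was not tested.

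Of 17 lipid genes, with mono-IL10 6 fell and 4 rose (2 rose without any 1 of PBS mice 1, 4 and 5 and mono-IL10 mice 2, 3 and 4), and the lowest were Cd36 and Lpl, lipoprotein lipase. Cd36 stood at 345, 108, 424, 159 and 233 CPM in the PBS mice, 25.2, 19.99, 48.8, 52.01 and 69.7 CPM in the mono-IL10 mice and 286, 61.6, 113, 56.5 and 82.8 CPM in the IL10/2-Trikine mice. The mono-IL10 values lay below every PBS value (-2.51 ± 0.44, edgeR adjusted p = 6.15e-04), while IL10/2-Trikine mice overlapped both groups (-0.98 ± 0.43, edgeR adjusted p = 0.152). In members free of other cells' genes the fall with mono-IL10 was -2.99 for Cd36 and -3.04 for Lpl, both called. Among the 10 genes with the largest fall were also Flt1, a receptor for VEGF (mean of 25.9 CPM in PBS and 4.33 CPM in mono-IL10 mice, -2.56 ± 0.42, edgeR adjusted p = 3.94e-04), the basement membrane collagen gene Col4a2 (-2.10), Kitl, the gene for stem cell factor (-1.98), and Plpp3. Of 4 endothelial markers 3 were tested, and with mono-IL10 Kdr and Cdh5 fell (-1.27 and -1.90) while Pecam1 rose (0.57). Their sum, led by Pecam1, was 107 to 129 CPM in PBS, 118 to 174 CPM in mono-IL10 and 86.7 to 198 CPM in IL10/2-Trikine mice. Endothelial genes were not among the 24 removed genes, and the part of endothelial transcripts in these falls was not tested. In members free of the 24 genes Kitl kept its call (-1.11), Plpp3 lost it (-1.52) and Flt1, Col4a2, Kdr and Cdh5 did not pass the filter on low counts. In members chosen at equal depth the calls of Col4a2 (-1.04), Kdr (-0.36) and Cdh5 (-1.23) were lost, and that of Flt1 was kept (-1.81). Without 1 mouse the call of Kdr was lost for PBS mouse 2, PBS mouse 3, mono-IL10 mouse 1 or mono-IL10 mouse 2 and that of Cdh5 for PBS mouse 3, mono-IL10 mouse 1 or mono-IL10 mouse 2. Fabp5, a fatty acid binding protein gene, rose with both (1.21 ± 0.09, edgeR adjusted p = 3.56e-08 and 0.87 ± 0.09, edgeR adjusted p = 3.68e-06). Among 13 complement and Fc receptor genes 8 rose and 1 fell with mono-IL10 (0 fell without PBS mouse 1 or 3), and 5 rose with IL10/2-Trikine (3 without any 1 of 7 mice, PBS mice 1, 3, 4 and 5 and IL10/2-Trikine mice 2, 4 and 5), among them Fcgr4 (1.11 ± 0.14, edgeR adjusted p = 2.11e-05 and 0.86 ± 0.14, edgeR adjusted p = 5.53e-04). Of 13 checkpoint ligands and suppressors, 2 rose and 2 fell with mono-IL10 (1 fell without PBS mouse 1) and 5 fell with IL10/2-Trikine, among them Cd274, which encodes PD-L1 (-0.55 ± 0.08, edgeR adjusted p = 2.39e-04), and Entpd1, the ATP-degrading CD39 (-0.67 ± 0.07, edgeR adjusted p = 7.44e-06). Cd274 was not called in members free of other cells' genes (-0.32). The 2 and 2 of 13 with mono-IL10 stand beside 8.59% and 9.64% of all genes, and the 5 with IL10/2-Trikine beside 7.84%. The lipid, complement and Fc receptor genes that rose and fell with mono-IL10 stand beside the same 8.59% and 9.64%. The 5 complement and Fc receptor genes that rose with IL10/2-Trikine stand beside 5.97%.

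By the same criteria 41 genes were higher and 24 lower with IL10/2-Trikine than with PBS. The first 3 that were higher were Gzma, Gzmc and Gzmb, granzymes of cytotoxic lymphocytes. Gzmb stood at 27.4, 15.03, 20.96, 32.9 and 23.1 CPM in the PBS mice, 41.6, 39.8, 19.1, 42.7 and 29.3 CPM in the mono-IL10 mice and 124, 109.6, 129.6, 161 and 131 CPM in the IL10/2-Trikine mice. All IL10/2-Trikine mice were above all others (2.41 ± 0.20, edgeR adjusted p = 4.90e-07), in the library in which the NK cell markers of the members were also higher than in all mice of the others. Gzmb was not tested in members free of other cells' genes, and the part of lymphocyte transcripts in the granzyme levels was not tested. Against mono-IL10, 59 genes were higher with IL10/2-Trikine by these criteria, led by Onecut2, Magi1, Cp and Clu, with Sox9, a transcription factor of ductal epithelium, among the first 5. The summed tumor epithelial markers had a higher range in the IL10/2-Trikine mice, which overlapped that of the mono-IL10 mice. Sox9 changed by 1.68 ± 0.43, edgeR adjusted p = 0.0117 against PBS and by -0.13 in members without Krt8 and Krt18 UMIs. In these members the differences between the cytokines were smaller, at 1.39 for Onecut2 (from 2.96), 2.32 for Magi1 (from 2.89) and 1.44 for Clu, and the calls of Cp (0.95, from 2.74) and Sox9 (0.91, from 2.46) were lost. In members free of other cells' genes the difference between the cytokines was 1.23 for Clu, from 2.66, and 1.17, no longer called, for Cp.

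**Figure D3:**
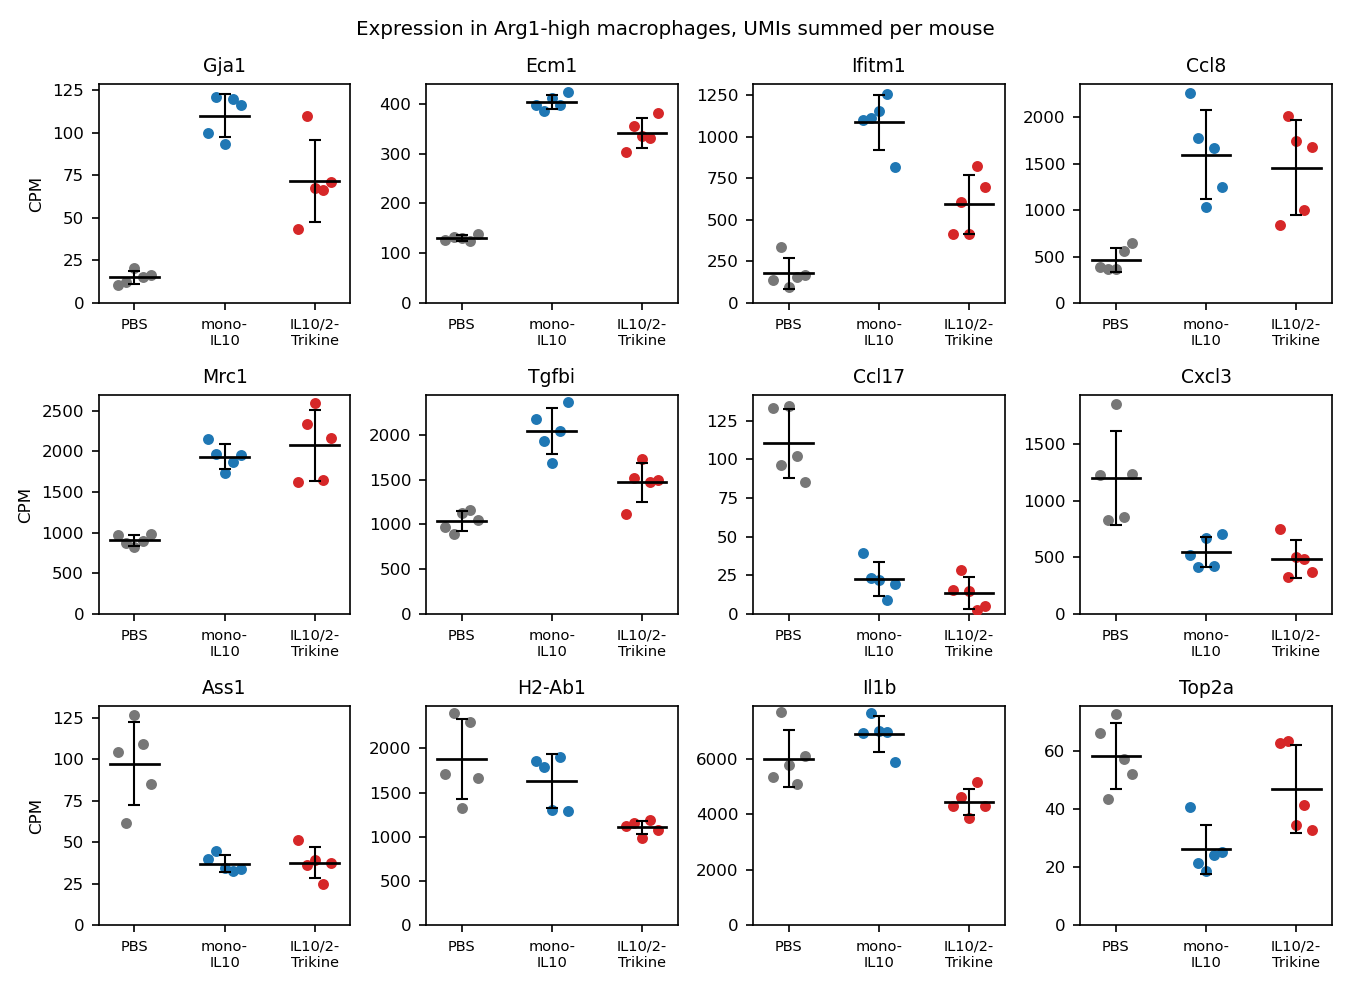
Expression of 12 genes in Arg1-high macrophages (y axis, CPM of UMIs summed per mouse, from 0) in PBS, mono-IL10 and IL10/2-Trikine mice (x axis). Points are mice (n = 5 per group), lines are means and bars SD; Gja1, Ecm1, Ifitm1, Ccl8 and Mrc1 lie above all PBS mice in both treated groups, and H2-Ab1 lies below them only with IL10/2-Trikine.

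**Figure D4:**
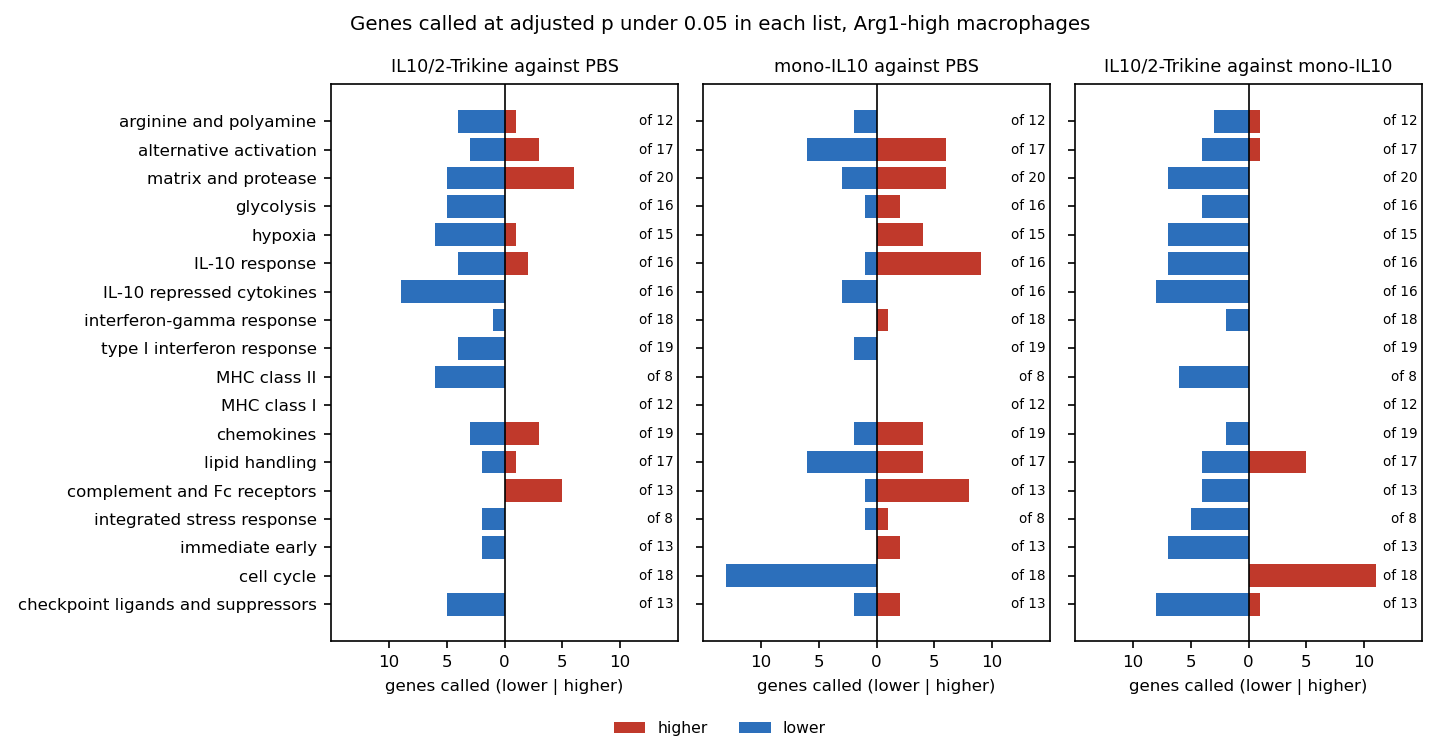
Number of genes called higher (red, to the right) or lower (blue, to the left) at an adjusted p under 0.05 in each of 18 gene lists (rows) in the 3 comparisons (panels), with the number tested at the right. The IL-10 response list holds 9 higher genes in the mono-IL10 panel and 2 in the IL10/2-Trikine panel, and the cell cycle list holds 13 lower genes in the mono-IL10 panel alone.

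Whether these changes were larger in Arg1-high than in Cx3cr1+ macrophages was tested as the difference of the log2 changes in the 14 mice with at least 20 cells of both classes. IL10/2-Trikine mouse 3, with 10 Cx3cr1+ cells, was left out. The other IL10/2-Trikine mice held 342, 84, 79 and 37 Cx3cr1+ cells, the mono-IL10 mice 57 to 187 and the PBS mice 235 to 802. With so few cells in the treated groups, a small number of genes does not show that the classes changed alike. For mono-IL10 against PBS, 32 of 11825 genes differed (0.271%), for IL10/2-Trikine against PBS 2 differed (0.0169%), namely Fn1 and Maf, and between the cytokines 2 differed (0.0169%), namely Dlc1 and Pclaf, the last 2 named after their values were seen. For the other genes a difference between the classes was not shown. Set against all other macrophages in place of Cx3cr1+ cells, 8 of the 32 genes for mono-IL10 and 1 of the 2 for IL10/2-Trikine against PBS were called, 0 of the 2 between the cytokines were, and of the 12 named differences only the 2 of Fn1 were. Gja1 rose from a mean of 15.03 to 110.1 CPM in members with mono-IL10 and from 19.1 to 51.1 CPM in Cx3cr1+ macrophages, a difference of 1.41 ± 0.17, edgeR adjusted p = 1.99e-04. In the other classes Gja1 rose as well, from 22.0 to 88.5 CPM in macrophages with fewer than 5 Arg1 UMIs and from 39.7 to 278 CPM in Cd163+ Folr2+ cells, and the difference against all other macrophages was 0.20. Maf, a transcription factor that sustains Il10 expression, averaged 166 CPM in members of PBS mice and 205 CPM with mono-IL10, and 300.5 and 213 CPM in Cx3cr1+ cells, a difference of 0.75 ± 0.09, edgeR adjusted p = 1.99e-04. It averaged 219 and 250 CPM in macrophages with fewer than 5 Arg1 UMIs, and the difference against all other macrophages was 0.06. With IL10/2-Trikine its difference was 0.67 ± 0.11, edgeR adjusted p = 0.0196. The call was lost when 1 mouse was left out, for each of PBS mouse 1, PBS mouse 3, PBS mouse 4, IL10/2-Trikine mouse 2, IL10/2-Trikine mouse 4 and IL10/2-Trikine mouse 5, with values of 0.61 to 0.68. Fn1 rose in both classes but more in Cx3cr1+ cells, from 833 to 2117 CPM with mono-IL10 (-0.71 ± 0.08, edgeR adjusted p = 1.99e-04) and to 1909 CPM with IL10/2-Trikine in the 4 mice tested (-0.65 ± 0.09, edgeR adjusted p = 0.00768). The call was lost when 1 mouse was left out, for each of PBS mouse 1, IL10/2-Trikine mouse 2 and IL10/2-Trikine mouse 4, with values of -0.63 to -0.54. Inhba fell in members from 565 to 292 CPM with mono-IL10 and changed from 172 to 153 CPM in Cx3cr1+ cells (-0.88 ± 0.19, edgeR adjusted p = 0.0473). The call was lost when 1 mouse was left out, for each of PBS mouse 1, PBS mouse 3, PBS mouse 4, mono-IL10 mouse 1, mono-IL10 mouse 3, mono-IL10 mouse 4, mono-IL10 mouse 5, IL10/2-Trikine mouse 4 and IL10/2-Trikine mouse 5, with values of -0.91 to -0.70. Itgax, which encodes CD11c, moved from 245 to 193 CPM in members and from 211 to 248 CPM in Cx3cr1+ cells (-0.59 ± 0.10, edgeR adjusted p = 0.00932). Levels of Cx3cr1+ macrophages differ from those of members by the rule, so these tests bear on the treatment changes and not on the levels.

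**Figure D5:**
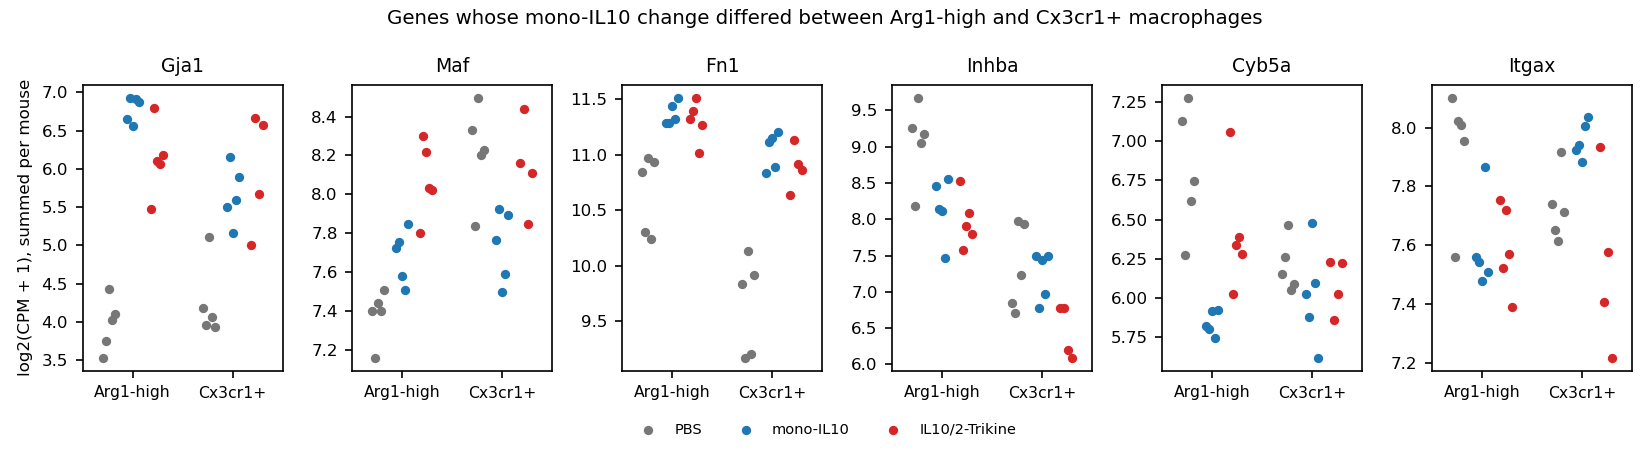
Levels of 6 genes (y axis, log2 of CPM + 1, UMIs summed per mouse; axes do not start at 0) in Arg1-high and Cx3cr1+ macrophages (x axis) of PBS (grey), mono-IL10 (blue) and IL10/2-Trikine (red) mice, 1 point per mouse, with IL10/2-Trikine mouse 3 left out of the Cx3cr1+ class. With mono-IL10 Gja1 rises more in Arg1-high than in Cx3cr1+ cells and mean Maf is higher than with PBS in the former and lower in the latter, a contrast with Cx3cr1+ cells that was not called against all other macrophages.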

How the data were processed

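Gene and hashtag antibody UMIs were counted per barcode with Cell Ranger 9.0.1 against GRCm39 with an added transgene, per the file headers, and the authors deposited 1 matrix of raw UMI counts per library. Their notes also name Seurat 5.1.0 and DESeq2 1.46.0, and their metadata table annotates only T and NK cells, which were left out. The rule for members is given at the start of the report. Doublets were handled only by asking for 1 hashtag with at least 2/3 of the antibody UMIs. The mouse was the replicate, with 5 per group and 170 to 1140 members per mouse.

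Counts were summed over the members of a mouse. Genes were kept by filterByExpr, scaled by TMM and compared across all 15 mice with edgeR 4.0.16 (quasi-likelihood, R 4.3.3), with Benjamini-Hochberg adjustment over all genes tested. Exact permutation tests over mice, two-sided, were used for shares (scipy 1.17.1). The fits were checked on simulated data. Alternatives were DESeq2 1.42.0, no filter, other thresholds, thinned counts, fewer groups, a block and 1 mouse left out. The members and gene lists were chosen with earlier results of these data known. Named genes were the 10 highest and 10 lowest per comparison that passed an adjusted p under 0.05, a log2 change of at least 1, 20 CPM in 1 group and no overlap between mice, plus members of the lists. Genes in the rule, mitochondrial genes, receptor segments and unnamed gene models were left out of the named genes. Hashtag numbers mark different animals, so they do not pair mice. Intervals and tests cover the spread between these mice within 1 library per treatment.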

Additional observations from a re-analysis of the deposited data

Results flagged for a closer look

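Of 5 mice in a group, 1 stood apart from the other 4 by Dixon's test in 14 of 243 groups tested, and chance flags about 1 in 20 groups, so the number is near what chance gives. Among PBS mice these were mouse 2 for Ifitm1 (339.988 CPM), Socs3 (376.522 CPM) and Fcgr1 (120.088 CPM), mouse 3 for Ctsl (1019.92 CPM) and Flt1 (43.8196 CPM) and mouse 4 for Nkg7 (55.2737 CPM). Among mono-IL10 mice they were mouse 5 for Magi1 (6.80136 CPM) and Cp (20.198 CPM) and mouse 4 for Itgax (232.073 CPM). Among IL10/2-Trikine mice they were mouse 1 for Cd36 (286.185 CPM) and Cyb5a (131.944 CPM), mouse 3 for Cd44 (1224.12 CPM) and Slc2a1 (70.8541 CPM), and mouse 4 for Il1rn (1023.3 CPM).

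The change with treatment differed between Arg1-high and Cx3cr1+ macrophages by a test of the difference itself for the following genes, given as the log2 change in Arg1-high minus that in Cx3cr1+ cells. For IL10/2-Trikine against PBS it was 0.67 for Maf and -0.65 for Fn1. For mono-IL10 against PBS it was above 0 for Gja1 (1.41), Maf (0.75), Gas6 (0.66), Fcrls (0.64) and Frmd4b (0.55). It was below 0 for Cyb5a (-0.89), Inhba (-0.88), Fn1 (-0.71), Itgax (-0.59) and Ndrg1 (-0.56). The calls of Fcrls, Cyb5a and Ndrg1 were lost on leaving out any 1 of 8, 6 and 5 mice, with values of 0.58 to 0.65 for Fcrls, -0.90 to -0.78 for Cyb5a and -0.56 to -0.48 for Ndrg1.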

How the results depend on the processing

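The excess of members among macrophages with mono-IL10 over PBS passed its test under every share alternative run. IL10/2-Trikine against PBS turned to -3.45 points with all hashtag-assigned cells as denominator and passed at 16.7 points at 2 or more Arg1 UMIs in cells thinned to 3000 UMIs, shallower ones left out, where the limit of 2 alone gave 14.7. Thinned to 2000 UMIs, the same limit gave 15.7 points for this comparison, which did not pass. IL10/2-Trikine against mono-IL10 no longer passed at 2 or more Arg1 UMIs, with -3.76 points thinned to 3000 UMIs, -4.03 thinned to 2000 and -6.13 unthinned. Leaving out 1 mouse gave 5.96 to 10.6 points for IL10/2-Trikine against PBS, 20.8 to 25.0 for mono-IL10 against PBS and -16.6 to -12.0 between the cytokines.

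Genes called numbered 1592 for IL10/2-Trikine against PBS, 2101 for mono-IL10 against PBS and 1934 between the cytokines. In the same order, they were 759, 654 and 606 with summed counts thinned to the lowest mouse, and 690, 1110 and 398 in members without transcripts of other cell types, which are fewer counts and fewer cells by construction. With thinned sums more genes were called for IL10/2-Trikine than for mono-IL10 against PBS, the reverse of the main fit. Members with 10 or more Arg1 UMIs gave 995 for IL10/2-Trikine against PBS and 1067 between the cytokines. Leaving out 1 mouse gave 1169 to 1626, 1683 to 2179 and 1361 to 2030 genes. Sox9 against PBS turned to -0.13 with IL10/2-Trikine in members without Krt8 and Krt18 UMIs.

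Genes whose change differed from that in Cx3cr1+ macrophages numbered 2, 32 and 2 in that order, 11, 142 and 8 against all other macrophages (1, 8 and 0 of them shared), and 96, 441 and 186 with no filter on low counts. Leaving out 1 mouse gave 0 to 5, 16 to 102 and 0 to 2. The highest count for mono-IL10 against PBS came without mono-IL10 mouse 2 and the lowest without PBS mouse 1. The causes were not tested.

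With the hashtag number as a replicate block, 1512, 2006 and 1819 genes were called, of which 1419, 1875 and 1699 were also called without it. Deviations of same-numbered mice correlated at -0.0901 to 0.1478, and the numbers do not pair the mice. Members chosen at equal depth, DESeq2, fits of 2 groups and members without keratin UMIs kept each count of called genes within 1.5 times. IL10/2-Trikine members were the shallowest, so weak changes there are the least well measured.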
